A study of Mus musculus with 6 samples.

Results

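The genes described here encode the spliceosome's Sm and snRNP proteins, its SF3A, SF3B and Prp factors, the U2AF subunits, the SR proteins and the hnRNP proteins. They were taken by symbol, as every gene whose name on the array begins with Srsf or Sfrs and a digit, Snrp, Hnrnp, Hnrp, Sf3a, Sf3b, U2af or Prpf. The array held 151 probes for 63 such genes. A gene was tested when a probe had a detection p under 0.05 on at least 3 arrays, and the brightest such probe stood for it. This left 57 genes among the 11241 features tested, of which 55 were detected on all 6 arrays. Hnrnph2 was detected on 5 arrays and Prpf39 on 4. The 6 genes that failed the filter were Hnrnpa3, Hnrnpu, Sf3b1, Snrpb2, Snrpe and Srsf12.

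Introns are removed from pre-mRNA by the spliceosome, which assembles from small nuclear ribonucleoproteins (snRNPs) built on a ring of Sm proteins and from many further factors. U2AF and SF3 proteins recognise the 3′ end of the intron and the branch point, and the Prp proteins take part in later assembly and catalysis. SR proteins mostly promote the use of nearby exons and many hnRNP proteins oppose it, so their balance sets alternative splicing, including that of genes used by developing and activated T cells.

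The cells were mouse T-cell acute lymphoblastic leukemia, a cancer of T-cell precursors, with the genotype ΔE-NOTCH1 Rosa26 Cre-ERT2 Hes1flox/flox in both groups. ΔE-NOTCH1, an activated NOTCH1, had been put by retrovirus into lineage-depleted bone marrow, which was transplanted into lethally irradiated NRG immunodeficient mice. The 3 control samples (WT) received ethanol for 36 hours, and the 3 knockout samples (KO) received 4-hydroxy-tamoxifen for 36 hours, which activates Cre-ERT2 to delete Hes1, a repressor gene switched on by NOTCH1. No array measured 4-hydroxy-tamoxifen with Hes1 left intact, so the drug, Cre activity and loss of Hes1 cannot be told apart. The labels describe both cultured cells and tamoxifen-treated recipient mice and do not settle the source of each RNA. They call the replicates biological without saying whether these were separate leukemias, mice or cultures, and a p-value here therefore speaks only to the variation among these 6 samples, which may be partly technical.

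Hes1 read 10.97, 11.15 and 10.82 in WT and 4.51, 4.44 and 4.66 in KO, in normalised log2 intensity for replicates 1, 2 and 3 of each group, the order and unit used for every set of array values. It was detected on 3 WT arrays and 0 KO arrays and was at least 53.5-fold lower in KO (limma, adjusted p = 1.00e-06). Of the T-lineage markers, 8 of the 11 with a probe were detected on at least 3 arrays, among them Cd3d, Cd3e, Cd3g and Cd247, while Cd8a and Cd5 were detected on 0 arrays and Cd4 on 2. The summed T-lineage level was 93930 to 103000 intensity units in WT and 96990 to 106400 in KO. Of the markers with a probe, 0 of 3 B-lineage, 0 of 6 myeloid, 0 of 2 natural killer and 1 of 3 erythroid genes passed the detection rule. For stroma and endothelium 1 of 5 did, Pecam1, which has a known role on endothelium and leukocytes. The sum of that list was 708 to 879 units in WT and 951 to 1289 in KO, and its part in the results below was not tested. In bulk RNA, fewer cells of a type and less RNA per cell cannot be told apart. The mean signal per probe was 703 to 713 on the WT arrays and 520, 630.5 and 687 on KO replicates 1, 2 and 3. The log2 values of KO replicate 1 also correlated least with those of the remaining arrays, at a mean r of 0.981, while the 5 others had 0.990 to 0.991.

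None of the 57 splicing genes differed between KO and WT by limma's test with Benjamini-Hochberg adjustment over all features (0 genes at adjusted p under 0.05, lowest adjusted p 0.281). In the whole comparison 7 of 11241 features, 0.0623%, passed it. The genes split evenly in sign, with 27 higher and 30 lower values in KO, and 52 lower when arrays were scaled to a common median, which moved the median of all features to -0.17. Their median log2 change, KO minus WT, was -0.01, beside 0.00 over all features, and the changes ran from -0.64 for Hnrnpd to 0.30 for Prpf4b. Both ends came from dim probes, with WT and KO means of 6.60 and 5.96 for Hnrnpd and 5.49 and 5.79 for Prpf4b. The median of the 57 genes on each array was 11.5 to 11.7. Without background correction the changes of Hnrnpd and Prpf4b were -0.24 and 0.09. At an unadjusted p under 0.05 there were 2 genes, Hnrnpd and Srsf11, or 3.51% of the 57, and both had lower values. Over all features the share was 9.27%, with 5.00% higher and 4.27% lower in KO. The groups stood apart without overlap for 6 of the 57 genes, or 10.5%, against 16.2% of all features. Of these 6, Hnrnpm was higher in KO (8.49% of all features were of that kind) and Hnrnpd, Srsf11, Hnrnph3, Sf3b5 and Srsf9 were lower (7.69%).

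The error of each gene's change sets the size of difference that 3 arrays a group could resolve. The median standard error of a change was 0.13 log2 units among the 57 genes and 0.14 among all features, and the median size of a change, regardless of sign, was 0.09 among the genes and 0.14 among all features. The 95% confidence interval of the change lay within 1.41-fold in either direction for 39 of the 57 genes (68.4%), and for 51.2% of all features. It lay within 2-fold for 56 of 57 (98.2%), and for 94.3% of all features. Hnrnph2, the gene outside that limit, had an interval from -1.12 to 0.64 on the log2 scale. In these comparisons the 57 genes and all features were not matched for signal level.

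**Figure D1:**
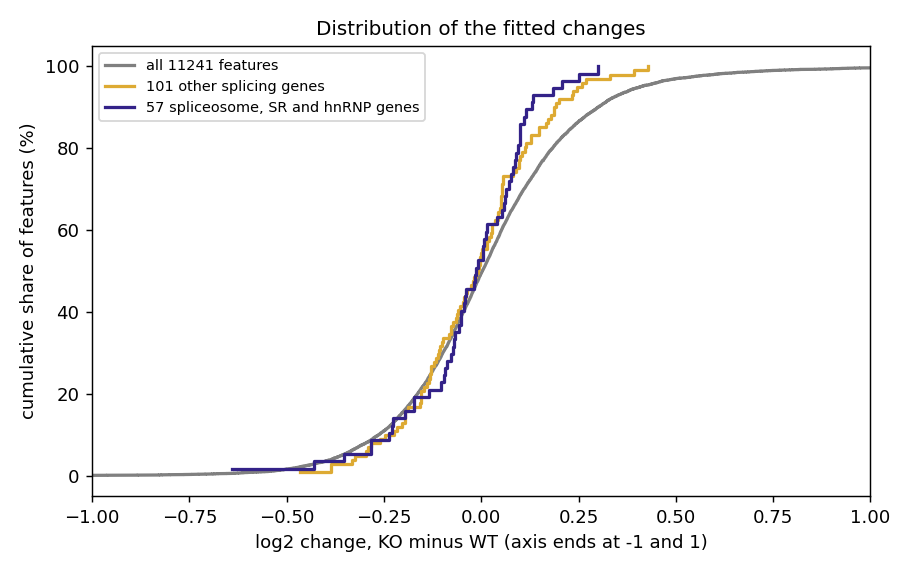
Cumulative share of features (vertical axis, percent) by fitted log2 change, KO minus WT (horizontal axis), for the 57 spliceosome, SR and hnRNP genes, 101 other splicing genes and all 11241 features. The curve of the 57 genes is centred on -0.01 and runs from -0.64 to 0.30, while the curve of all features is wider and its ends lie beyond the axis. A range over 11241 features takes in more extremes than one over 57, and its low end, -6.44, is the deleted Hes1.

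Among the 18 hnRNP genes tested of 20 with a probe, 7 had higher and 11 had lower values in KO, with a median log2 change of -0.05. With median scaling, which moved the median of all features to -0.17, all 18 were below 0 and 12 of 18 were below that median. Hnrnpd, which encodes AUF1, a protein that binds AU-rich elements and alters mRNA turnover, read 6.51, 6.52 and 6.78 in WT and 5.70, 6.002 and 6.18 in KO. Every KO value was below every WT value, and the lowest was on KO replicate 1. The group means were 6.60 ± 0.15 in WT and 5.96 ± 0.24 in KO (SD, n = 3 each), a difference of -0.64 ± 0.15 log2 units (SE), or 1.56-fold lower. The difference did not pass the test (limma, unadjusted p = 0.00365, adjusted p = 0.281), and 1 of the gene's 2 probes was detected. Without KO replicate 1 the change was -0.51, with an unadjusted p of 0.00611. The size also moved with the background handling, to -0.24 without background correction and in the authors' values and -0.36 with normexp.

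The 250 bases before the RefSeq start of Hnrnpd (GRCm38.p6, chr5:99978939-99979188, minus strand) and those before both RefSeq starts of Srsf11 (chr3:158036607-158036856 and chr3:158031749-158031998, minus strand) are shown because these were the 2 genes with an unadjusted p under 0.05. HES proteins are known to bind the N box, CACNAG, and the class C site, CACGNG, and matches to either on either strand are in capitals, read along the printed strand. CACGAG belongs to both motifs, and CACGTG, which reads the same on both strands, was counted once.
Hnrnpd: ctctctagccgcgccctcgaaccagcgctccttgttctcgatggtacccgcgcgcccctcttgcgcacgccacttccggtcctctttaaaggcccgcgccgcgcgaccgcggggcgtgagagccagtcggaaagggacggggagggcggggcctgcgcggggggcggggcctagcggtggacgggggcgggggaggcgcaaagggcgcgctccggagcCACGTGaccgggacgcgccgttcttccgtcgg
Srsf11, first start: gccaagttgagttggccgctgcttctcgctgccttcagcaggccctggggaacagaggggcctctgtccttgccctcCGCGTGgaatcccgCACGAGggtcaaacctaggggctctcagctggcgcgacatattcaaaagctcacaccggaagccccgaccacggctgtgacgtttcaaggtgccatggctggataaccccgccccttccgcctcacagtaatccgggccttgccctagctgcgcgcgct
Srsf11, second start: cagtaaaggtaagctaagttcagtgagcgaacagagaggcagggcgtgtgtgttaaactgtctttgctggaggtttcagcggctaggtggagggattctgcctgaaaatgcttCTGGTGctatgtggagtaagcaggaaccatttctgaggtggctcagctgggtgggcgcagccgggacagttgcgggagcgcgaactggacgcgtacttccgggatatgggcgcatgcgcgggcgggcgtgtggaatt
The Hnrnpd window held 0 N boxes and 1 class C site. The first Srsf11 window held 1 N box and 2 class C sites, with CACGAG counted under both, and the second held 1 N box and 0 class C sites. RefSeq windows were found for 49 of the 57 genes, with 67 starts. The N box was present before 14 of these starts (20.9%), and before 36.7% of all 32851 starts in the table. The class C site was present before 25 (37.3%), and before 23.5% of all starts. The median GC content was 60.4% before the splicing genes' starts and 52.4% before all starts. The matches are a description of letters, and no binding was measured.

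Hnrnph3, a member of the hnRNP H and F family that binds runs of guanines, read 8.22, 8.25 and 8.28 in WT and 7.59, 8.19 and 7.92 in KO. The WT values lay close together and all 3 KO values lay below them, KO replicate 2 only narrowly. Its change was -0.35 ± 0.16 (SE, unadjusted p = 0.0614 by limma, adjusted p = 0.574), and -0.20 without KO replicate 1. Hnrnpm, a regulator of alternative exons, read 13.78, 13.81 and 13.81 in WT and 13.91, 13.85 and 13.94 in KO. Its groups did not overlap either, but the change of 0.10 ± 0.10 (SE) was about as large as its error, and it turned to -0.13 when arrays were scaled to a common median in place of quantile normalisation. The largest positive hnRNP change was that of Hnrnpdl, the AUF1-like protein, at 0.13 ± 0.21 (SE). It read 11.52, 11.62 and 11.52 in WT and 12.19, 11.35 and 11.51 in KO, so that KO replicate 1 was above and the other KO arrays were below every WT array. Without KO replicate 1 the Hnrnpdl change was -0.12, and its other detected probes gave -0.07 and -0.16 with all arrays.

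The other hnRNP genes gave overlapping groups. Hnrnpf and Hnrnpa2b1 each had a log2 change of -0.28, with SEs of 0.19 and 0.27, and Hnrnpr one of -0.13. Hnrnpf read 11.04, 11.77 and 11.62 in KO, and its change was -0.07 without KO replicate 1. Smaller negative values were measured for Hnrnpa0 (-0.09), Hnrnpk (-0.07), Hnrnpab (-0.06), Hnrnpa1 (-0.04) and Hnrnpll (-0.04). Other detected probes of these genes gave 0.11 and 0.19 for Hnrnpk and 0.12 and -0.13 for Hnrnpa1. For Hnrnpa0, Hnrnpab and Hnrnpll they gave -0.18, -0.31 and -0.12. Hnrnpa1 is the classic opponent of SR proteins at splice sites, and Hnrnpll is known to regulate the alternative splicing of Ptprc, the CD45 gene, in T cells. Hnrnpul1 (0.01), Hnrnpc (0.06), Hnrnpl (0.07), Hnrnpul2 (0.09) and Hnrnph1 (0.09) had small positive values. Their other detected probes gave -0.66 and 0.18 for Hnrnpul1, -0.10 for Hnrnpc, 0.001 for Hnrnpul2 and -0.51, -0.41, -0.09 and -0.06 for Hnrnph1. Hnrnpc binds uridine runs in nascent transcripts, and Hnrnpl is another known regulator of CD45 exons.

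**Figure D2:**
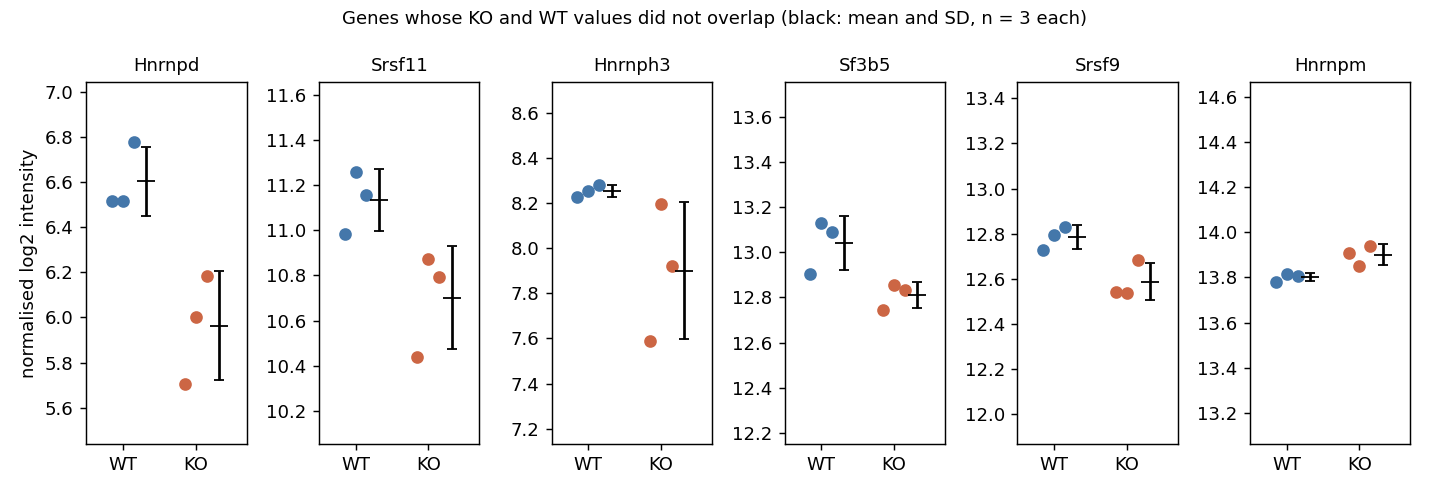
Normalised log2 intensity (vertical axis) on the 3 WT and 3 KO arrays for the 6 genes whose groups did not overlap, with points for arrays from replicate 1 to 3, a black bar for the group mean and error bars for the SD (n = 3 each). All panels span the same number of log2 units, and the gap between group means runs from -0.64 for Hnrnpd to 0.10 for Hnrnpm.

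Of 10 SR protein genes, 9 were tested, with 3 higher and 6 lower values in KO and a median change of -0.05. With median scaling all 9 were below 0, and 7 of 9 were below the median of all features, then at -0.17. Srsf11, an SR-related protein found at early splice-site complexes, read 10.99, 11.26 and 11.16 in WT and 10.44, 10.87 and 10.80 in KO. All 3 KO values were below the WT values, and KO replicate 1 was again the lowest. The means were 11.13 ± 0.14 in WT and 10.70 ± 0.23 in KO (SD, n = 3 each), a change of -0.43 ± 0.15 (SE), or 1.35-fold lower, which did not pass the test (limma, unadjusted p = 0.0211, adjusted p = 0.441). The other detected Srsf11 probes gave -0.37 and 0.14, so the probes of the gene differed in sign. Without KO replicate 1 the change was -0.30, with an unadjusted p of 0.0415.

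Srsf9, an SR protein with a short RS domain, read 12.73, 12.80 and 12.83 in WT and 12.54, 12.54 and 12.69 in KO. The groups stood apart by a small gap, and the change was -0.20 ± 0.10 (SE, unadjusted p = 0.0992 by limma). The best-known SR proteins gave values near 0. Srsf1, first described as the splicing factor ASF/SF2, had a change of -0.05, Srsf2, known as SC35, of -0.02 and Srsf3, which also takes part in mRNA export, of -0.10. Srsf10, which represses splicing when dephosphorylated, was at -0.08, Srsf5 at 0.06 and Srsf4 at 0.08. The highest value was that of Srsf6, which read 11.52, 11.44 and 11.45 in WT and 11.71, 11.48 and 11.50 in KO, a change of 0.09 ± 0.11 (SE) in which KO replicate 1 alone lay above all WT arrays.

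All 6 Sm protein genes tested, of 7 with a probe, had lower values in KO, under each scaling tried, but each by little. The changes were -0.09 for Snrpd3 and Snrpd1, -0.07 for Snrpb, -0.05 for Snrpd2, -0.04 for Snrpg and -0.01 for Snrpf, with a median of -0.06 and SEs near 0.1. Snrpd3, at the low end, read 13.35, 13.44 and 13.48 in WT and 13.33, 13.28 and 13.39 in KO, so its groups overlapped at KO replicate 3. The lowest unadjusted p among the Sm genes was 0.395, and without KO replicate 1 the count was 1 higher and 5 lower.

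In the class of snRNP-specific and Prp proteins, 11 of 13 genes tested, of 14 with a probe, had higher values in KO, with a median change of 0.10. All of the 13 but Snrpa were Prp genes. None of the 13 had groups without overlap, and none had an unadjusted p under 0.05. Genes named Snrnp fell outside the symbols used and had changes of both signs. They were Snrnp70 (-0.32), Snrnp25 (-0.10), Snrnp35 (-0.06), Snrnp200 (-0.001), Snrnp27 (0.04) and Snrnp48 (0.19). Prpf4b, a kinase that phosphorylates Prp proteins of the tri-snRNP, read 5.61, 5.44 and 5.43 in WT and 5.60, 5.76 and 6.02 in KO. KO replicate 1 lay just below WT replicate 1, the other KO values were the highest, and the change was 0.30 ± 0.14 (SE, unadjusted p = 0.0643 by limma), which became 0.40 without KO replicate 1 (unadjusted p = 0.0171) and 0.09 without background correction and in the authors' values. Prpf8, the large protein at the catalytic centre, had a change of 0.25 ± 0.23 (SE) and Prpf40b, a U1 snRNP partner, of 0.21 ± 0.30 (SE). Prpf18 (0.18), Prpf3 (0.12), Prpf6 (0.11), Prpf19 (0.10), Prpf39 (0.08), Prpf38b (0.04), Prpf38a (0.02) and Snrpa (0.01) followed. Prpf3, Prpf6, Prpf31 and Prpf4 belong to the tri-snRNP, Prpf19 is a ubiquitin ligase of the catalytic spliceosome, and Snrpa is the U1 protein A. The lower values were those of Prpf31 (-0.02) and Prpf4, which read 10.23, 10.00 and 10.16 in WT and 9.83, 10.25 and 10.12 in KO, a change of -0.07 with wide overlap. Without KO replicate 1, 8 of the 13 genes were higher and the median was 0.04. With the arrays scaled to a common median, which moved the median of all features to -0.17, 4 of 13 were above 0 and 10 of 13 were above that median. Other detected probes, with quantile normalisation and all arrays, gave -0.35, -0.30 and -0.12 for Prpf38a, -0.16 for Snrpa and -0.08 and 0.09 for Prpf19. Those of Prpf3 gave -0.43, -0.19, 0.06 and 0.15, and those of Prpf8 and Prpf40b gave 0.34 and 0.28. For Prpf31 they gave -0.11 and 0.14, and for Prpf4 -0.12.

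**Figure D3:**
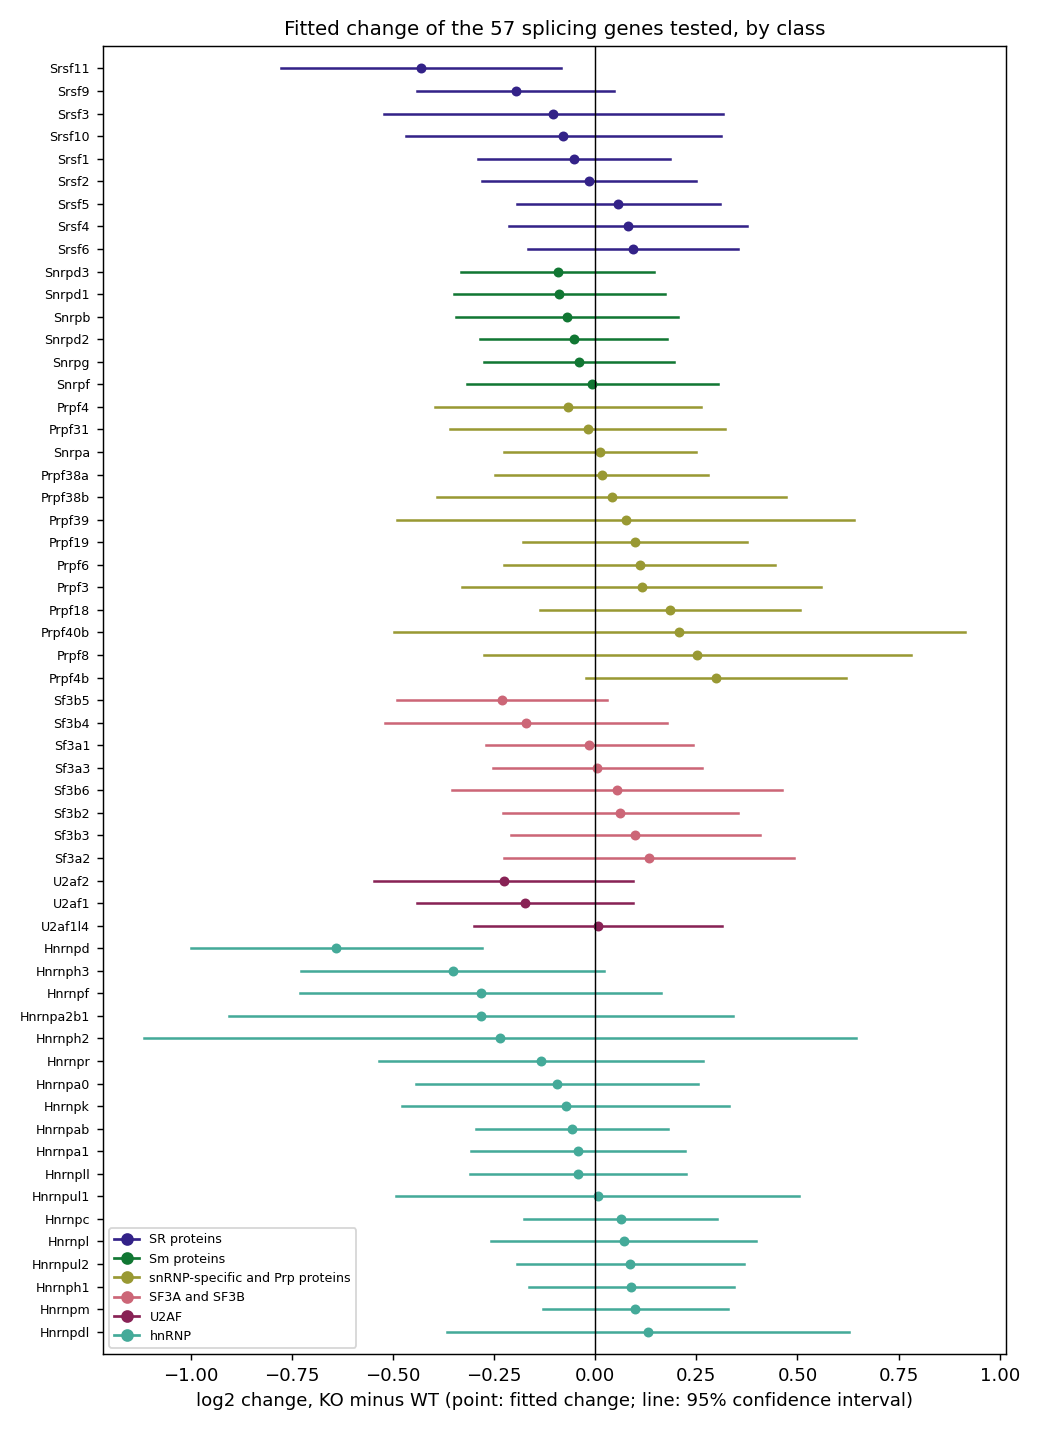
Fitted log2 change, KO minus WT (horizontal axis), of each of the 57 genes (vertical axis, grouped and coloured by class), with points for the change and lines for the 95% confidence interval of limma's fit to 3 arrays a group. The lines of Hnrnpd and Srsf11 stay below 0, every other line crosses it, and the 11 higher values among 13 snRNP-specific and Prp genes all lie within intervals that include 0.

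The SF3A and SF3B complexes are parts of the U2 snRNP that clamp the branch point. Of 9 genes 8 were tested, with 5 higher and 3 lower values and a median of 0.03. With median scaling 1 was higher and 7 were lower, and 5 of 8 were below the median of all features, then at -0.17. Sf3b5, the smallest SF3B subunit, read 12.90, 13.13 and 13.09 in WT and 12.74, 12.85 and 12.83 in KO. Its groups did not overlap, the change was -0.23 ± 0.11 (SE, unadjusted p = 0.0739 by limma), and its other detected probe gave -0.22. Sf3b4 was at -0.17 (-0.02 without KO replicate 1), Sf3a1 at -0.01, Sf3a3 at 0.01, Sf3b6, which contacts the branch-point adenosine, at 0.05, Sf3b2 at 0.06 and Sf3b3 at 0.10. Sf3a2 read 5.55, 5.96 and 5.84 in WT and 5.79, 6.14 and 5.82 in KO, a change of 0.13 ± 0.15 (SE) with wide overlap. Sf3b1, the SF3B subunit often mutated in blood cancers, was detected on 1 array and has no value here.

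All 3 U2AF genes were tested. U2af2, the large subunit that binds the polypyrimidine tract, read 9.26, 9.55 and 9.51 in WT and 9.24, 9.03 and 9.38 in KO, a change of -0.23 ± 0.14 (SE, unadjusted p = 0.14 by limma). KO replicate 3 lay above WT replicate 1, so the groups overlapped. U2af1, the small subunit that reads the AG at the intron's end, was at -0.17, and its relative U2af1l4 was at 0.01, with 7.99, 8.40 and 8.24 in WT and 8.17, 8.27 and 8.21 in KO.

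Much of the spread among these genes lay on 1 array. KO replicate 1 held the highest or the lowest of the 6 values for 31 of the 57 genes (13 highest and 18 lowest), or 54.4%, and for 60.4% of all features, so the share was no higher among the splicing genes than over the whole array. Each other array did so for 12 to 22 genes. The 22 were on KO replicate 2, or 38.6%, against 25.7% of all features, with 15 of them lowest. WT replicate 1 had 31.6% against 29.6%, and the remaining arrays were below their shares over all features. The genes in which this array stood farthest out, chosen after their values were seen, were Hnrnph2, Prpf40b, Hnrnpa2b1 and Prpf8. Hnrnph2 read 6.21, 5.82 and 6.01 in WT and 4.81, 6.34 and 6.18 in KO, and its change went from -0.24 to 0.25 without KO replicate 1. Prpf40b read 7.22, 7.40 and 7.15 in WT and 8.23, 7.04 and 7.12 in KO, and went from 0.21 to -0.18. In both genes the remaining KO arrays lay on the other side of the WT mean from KO replicate 1. Hnrnpa2b1, which sorts RNA into exosomes and reads N6-methyladenosine in human cells, read 13.50, 13.15 and 13.44 in WT and 12.43, 13.42 and 13.39 in KO, and went from -0.28 to 0.04, while its other detected probe gave 0.01 with all arrays. Prpf8 read 10.35, 10.22 and 10.08 in WT and 10.98, 10.07 and 10.35 in KO, and went from 0.25 to -0.01. In all, the fitted change of 18 of the 57 genes took the opposite sign when this array was left out, and the split stayed at 27 higher and 30 lower.

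**Figure D4:**
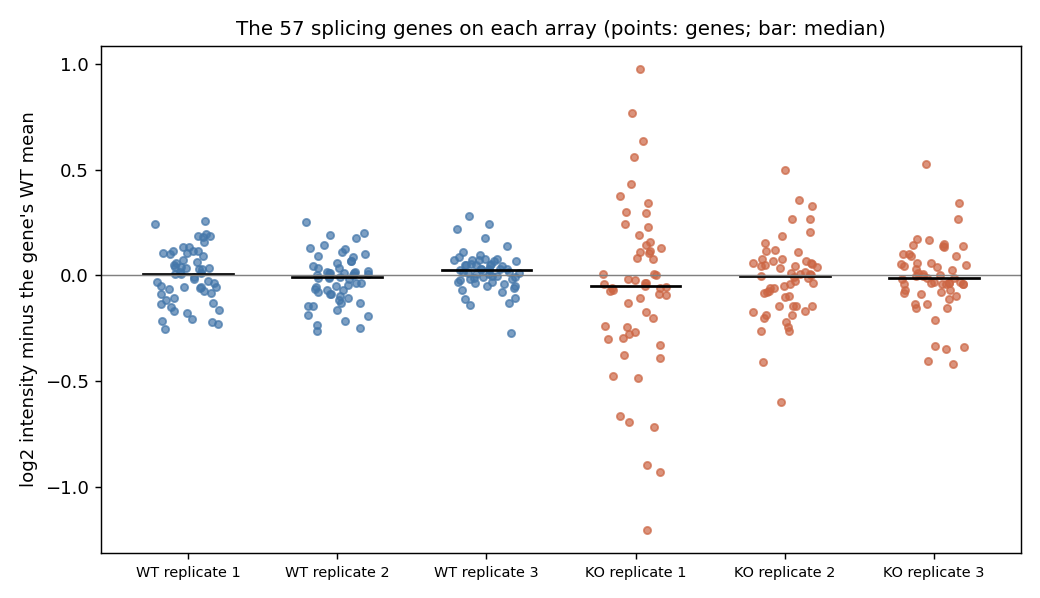
Deviation of each of the 57 genes (points) from its own WT mean, in log2 intensity (vertical axis), on each of the 6 arrays (horizontal axis), with a bar at the median. The points of KO replicate 1 are the most widely scattered, from Hnrnph2 at 4.81 against a WT mean of 6.01 to Prpf40b at 8.23 against a WT mean of 7.26, while the medians of all arrays lie near 0.

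Several genes carried more than 1 detected probe, which can read different transcript ends or isoforms. Of 35 such genes, 17 had probes of both signs. The widest gap was in Hnrnpul1, an RNA-binding protein of the SAF-A family, whose brightest probe gave 0.01. Another probe, ILMN_2675170, read 6.91, 6.80 and 6.79 in WT and 6.23, 6.34 and 5.96 in KO, a change of -0.66 ± 0.13 (SE) without overlap that did not pass the test when every detected probe was fitted alone (limma, adjusted p = 0.228). It was the 1 probe of the 57 not used for a gene whose unadjusted p was under 0.05, and it was picked out after its values were seen. Hnrnph1 had 5 detected probes with changes from -0.51 to 0.09, of which only the brightest was above 0. Sf3b6 had 3 from -0.51 to 0.15, and Prpf3 had 5 from -0.43 to 0.15. The 3 Srsf2 probes gave -0.39, -0.23 and -0.02, the last being the brightest.

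**Figure D5:**
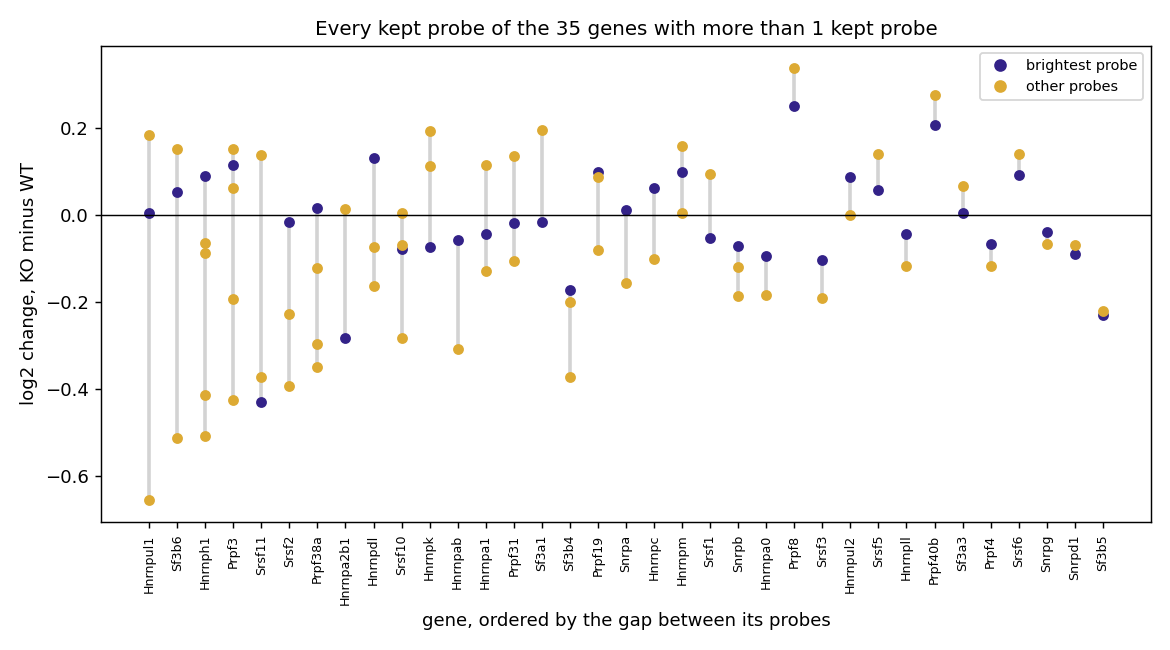
Fitted log2 change, KO minus WT (vertical axis), of every detected probe of the 35 genes with more than 1 (horizontal axis, ordered by the gap between probes), with dark points for the brightest probe and light points for the others. The Hnrnpul1 probes span -0.66 to 0.18, and the probes of 17 genes lie on both sides of 0.

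A wider list of 121 other splicing genes was read beside them: 101 were tested, 0 passed limma's test at adjusted p under 0.05, 46 had higher and 55 lower values, and the median change was -0.01. At an unadjusted p under 0.05 there were 4 (3.96%, against 9.27% of all features), 1 higher and 3 lower, and 19 had groups without overlap (18.8%, against 16.2%). The 3 lower became 0 without WT replicate 1, 1 without WT replicate 2 or 3, 7 without background correction and 8 with median scaling. The 1 higher became 4 without KO replicate 2 and 0 without WT replicate 3 or KO replicate 1. That count was also 0 with normexp and with detection p under 0.01 on all arrays. It was 2 without background correction and with the authors' values. Snrnp70, a protein specific to the U1 snRNP, read 11.20, 11.05 and 10.91 in WT and 10.79, 10.78 and 10.62 in KO, a change of -0.32 ± 0.12 (SE, unadjusted p = 0.029 by limma) without overlap, while its other detected probe gave 0.25. Rbmx, an X-linked relative of the hnRNP proteins, was lower without overlap by value (-0.28), as was Mbnl2 (-0.26), a muscleblind splicing regulator. Without KO replicate 1, Rbmx was at -0.26 and Mbnl2 at -0.23, with unadjusted p of 0.0524 and 0.0758 by limma. Snrnp70 (-0.35) stayed under 0.05 there, and Xab2 (-0.57) and Sart1 came under it. Sart1 went from -0.04 to -0.30 (limma, unadjusted p = 0.0433, adjusted p = 0.510). Srrm1, a coactivator with SR repeats, was the 1 higher gene at an unadjusted p under 0.05 and was among those without overlap. It passed the filter only through the KO arrays, with 0 detections in WT, and stood at least 1.11-fold above the bound for WT. Its place in these counts therefore rests on the group in which it was high.

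Most Lsm proteins form the ring on the U6 snRNA or a related ring that acts in mRNA decay. The Lsm genes had lower values in 8 of 9 tested, beside 5563 of 11241 features, with a median of -0.13 and 0 genes at an unadjusted p under 0.05. Lsm11 (-0.008), among the 8, and Lsm10 (0.002), the exception, belong to neither ring. Lsm8, found in the nuclear ring, read 12.79, 12.85 and 12.85 in WT and 12.55, 12.63 and 12.74 in KO, a change of -0.19 without overlap. Lsm3 (-0.22), Lsm5 (-0.16) and Lsm1 (-0.11) did not overlap either, and Lsm2 (-0.20) did. Groups without overlap were thus 4 of 9 (44.4%), all lower, against 7.69% of all features lower in this way. The list was not tested as a set. Lsm3 was at -0.11 and Lsm5 at -0.10 without KO replicate 1. Without KO replicate 1, 7 of the 9 were lower and the median was -0.10.

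The remaining lists had changes of both signs. Among the other snRNP, tri-snRNP and ATPase genes, 12 of 21 were higher. Usp39 (-0.25) and Txnl4a (-0.20), both tri-snRNP proteins, were lower without overlap, and Dhx8 (0.39 ± 0.25, SE), the helicase that releases spliced mRNA, overlapped. Dhx8 read 9.05, 7.96 and 8.42 in KO and its change was 0.11 without KO replicate 1, while Usp39 was then at -0.16. Among Prp19-related, catalytic-step and exon junction proteins, 11 of 23 were higher, with Aqr, an intron-binding helicase, at 0.24, Bud31 at -0.13 and Xab2 at -0.39. Xab2 was dim, at 5.34, 5.67 and 5.69 in WT and 5.54, 4.69 and 5.31 in KO, and was detected on 2 KO arrays. Its change was -0.57 without KO replicate 1 (limma, unadjusted p = 0.0294, adjusted p = 0.468). Among 27 other regulators 11 were higher, with the polypyrimidine-tract protein Ptbp3 at -0.39 and Tia1, which promotes use of weak splice sites, at 0.27, both with overlap. Ptbp3 was at -0.17 and Tia1 at 0.08 without KO replicate 1, and the other Tia1 probes gave 0.06, 0.00 and -0.11 with all arrays. Among 7 kinases of SR proteins 5 were higher, with a median of 0.05, but without KO replicate 1 it was 3 higher and 4 lower, with a median of -0.07. They included Clk4 at 0.23, Srpk2 at 0.15, Srpk1 at 0.06 and Dyrk1a at -0.30. These were 0.12, 0.17, -0.07 and -0.17 without KO replicate 1. Other detected probes, with all arrays, gave -0.10 and 0.02 for Clk4, -0.22 for Srpk2 and 0.07 for Dyrk1a. Among 14 genes of snRNP assembly 6 were higher, with a median of -0.05, but without KO replicate 1 it was 9, with a median of 0.03. Prmt5, the methyltransferase that modifies Sm proteins, read 11.59, 11.61 and 11.60 in WT and 11.83, 11.71 and 11.82 in KO, a change of 0.19 without overlap, and both of its other detected probes gave 0.17. Gemin2 (-0.47), Gemin8 (-0.20) and Gemin5 (0.33), partners of the SMN complex, overlapped. They were at -0.11, -0.14 and 0.16 without KO replicate 1, and the other detected Gemin2 probe gave -0.01 with all arrays.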

How the data were processed

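Total RNA from 3 WT and 3 KO samples was read on Illumina mouse bead arrays after amplification of 10 ng per sample, per the labels' protocols. The deposited table held, for 45281 probes, linear intensities and detection p-values per array, per the file headers. A second deposited table held the authors' log2 values, which equalled quantile-normalised log2 intensities within 5.0e-05, with a median of 7.20. Neither the genome build of the array's probe annotation nor the scanner software is stated in the sources used here.

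Intensities were corrected, quantile-normalised and logged with neqc (offset 16) in limma 3.58.1 under R 4.3.3, which hides a shift of most genes one way. Probes with a detection p under 0.05 on at least 3 arrays were kept (16287), and the brightest probe per named gene gave 8836 genes, beside 2405 unnamed probes. Platform annotation named 34885 probes with 1 symbol, 18 with several and left 10378 unnamed. RefSeq (GRCm38.p6) matched 34807, changed 0 symbols and supplied the sequences. KO was compared with WT by lmFit and eBayes, and p-values were adjusted by Benjamini-Hochberg over 11241 features. A bound of "at least" sets the detected group's mean against the detection limit or the probe's own signal, whichever is higher.

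The members, gene lists and tests were chosen with earlier results of these data known. Values on every array were given for Hes1, for members with an unadjusted p under 0.05 or without overlap, and for the largest positive and largest negative change of each class. Of each other list up to 4 genes by smallest p were named, some of them with their array values. Lsm1, Lsm10, Lsm11, Sart1 and the Snrnp genes other than Snrnp70 were named beyond this rule, after their values were seen. So were the Hnrnpul1 probe and the genes far out on KO replicate 1. Of the steps, only the limma fit was tested on simulated data. Random noise with the same spread for every gene was drawn around each gene's mean normalised value, and changes were added. The simulated arrays therefore held no outlying array and no correlation between genes. Normalisation, the detection filter and the choice of probe were not tested in this way. The number of arrays, 6, limits the precision. Same-numbered arrays did not deviate together (correlations of -0.10, -0.27 and 0.15), so replicate numbers were not used as pairs, and 0 pairs of arrays held identical values.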

Additional observations from a re-analysis of the deposited data

How the results depend on the processing

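Under every alternative run, 0 of the 57 genes passed limma's adjusted threshold, with lowest adjusted p-values from 0.0735 (array weights) to 0.814 (without WT replicate 3). Hnrnpd ranged from -0.75 to -0.24 and had an unadjusted p under 0.05 in 18 of 18 alternatives, Srsf11 from -0.63 to -0.22 in 15 of 18. The features that passed numbered 7 as reported, 36 without background correction and with the authors' log2 values, 30 with normexp, 23 with median scaling and also at adjusted p under 0.1, 17 with detection p under 0.01 on all arrays, 119 with array weights and 47 with a trended robust prior, and 2 to 9 with each replicate left out, with 2 without any one of WT replicates 1, 2 and 3 or KO replicate 3 and 3 without KO replicate 2. With the replicate number as a block, 2 features passed and 0 of the 57 genes. The block changed no other count or call of these genes. Genes lower at an unadjusted p under 0.05 numbered 2 as reported, 5 without background correction and with the authors' values, 6 with median scaling, 4 with normexp, no detection filter, array weights, the trended robust prior and RefSeq synonyms (70 genes tested), 1 with the mean of a gene's probes, and 1 to 3 with each replicate left out, 1 without WT replicate 2 or 3. Genes higher numbered 0 as reported, 1 with cyclic loess, no detection filter, array weights and median scaling on probes detected on all arrays, and 0 to 1 with each replicate left out, the 1 being Prpf4b (0.40) without KO replicate 1. The median change of -0.01 became -0.23 with median scaling, which moved the median of all features to -0.17, and -0.053 with the mean of a gene's probes. Genes without overlap went from 6 to 15 (26.3%) with median scaling, against 22.2% of all features. Hnrnpm reversed to -0.135 there. The cause of these shifts was not tested. Median scaling on detected probes and the counts without KO replicate 1 were chosen after seeing the data. With 3 arrays a group, a two-sided exact permutation test of 1 value cannot go below p = 0.1. Hnrnph2 and Prpf39, the genes not detected on every array, had standard errors of 0.38 and 0.24 beside a median of 0.13.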
